A study of Mus musculus with 12 samples.

Results

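Amino acids enter and leave mammalian cells through membrane carriers of the solute carrier (Slc) superfamily. The genes described here are the 42 symbols of the count table, of 53819 in all, that belong to 6 carrier families by name: Slc1, Slc3, Slc7, Slc36, Slc38 and Slc43. The rule for membership uses the symbol and no measured value, though the families were picked with earlier results of these data known. Their messenger RNA was counted in 12 libraries of mouse E14 embryonic stem cells, a standard stem cell line, grown in 2 dimensions. The groups were 3 libraries of untreated cells (control), 3 of cells given proline and 3 of cells given budesonide, a synthetic glucocorticoid. A further 3 came from cells given the 2 compounds at once (called both below). Treatment lasted 72 h, and the labels give no time for the control libraries. No group carried a genetic change and the labels give no doses. All libraries come from 1 cell line, and nothing in the labels says that replicates were separate cultures, so p-values reflect only how far the libraries of a group differ, and that spread may be technical.

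Carriers of the Slc38 family called system A bring small neutral amino acids into the cell together with sodium. Proline enters embryonic stem cells largely through 1 of them, Slc38a2. Exchangers of the Slc1 and Slc7 families then trade one amino acid for another across the membrane. Several Slc7 carriers are light chains that reach the surface only when joined to a heavy chain, Slc3a2. Members of the Slc36 and Slc38 families also sit in the lysosome, where amino acids are sensed by the kinase complex mTORC1. Many carrier genes are known targets of the transcription factor Atf4, which is made when amino acids run short.

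Library totals ran from 5.30 to 15.9 M counts, and the deepest library was proline 1. Control 3 and budesonide 3 had the largest shares of tested genes at 0, 6.57% and 8.43%, against 1.39% to 5.77% in the other libraries. For control 3 the gap to the next library, proline 2 (5.77%), was small. All 8 embryonic stem cell markers were tested, with a summed level of 2270.2 to 3021.5 CPM over the 12 libraries, and 3 of them fell with proline, 1 fell with budesonide and 1 with both against control, while 3 rose and 1 fell from proline to both. CPM is counts per M counts of tested genes after TMM scaling. Of 8 feeder fibroblast markers 4 were tested and Lum and Postn had no count. The sum of the feeder markers was 9.25 to 17.8 CPM in control, 18.5 to 22.1 in proline, 5.40 to 6.99 in budesonide and 4 to 7.46 in both libraries. Of them 1 was called lower from proline to both and 1 for both against control. Of 7 endoderm markers 6 were tested, at 6.94 to 13.6, 24.4 to 28.9, 5.40 to 17.6 and 15.2 to 22.8 CPM in the same order, and 1 was called higher with proline and 1 with budesonide. Pdgfra stands in the feeder and in the endoderm list, so these sums share a gene. Of 7 trophoblast markers 6, of 5 neuroectoderm markers 3 and of 5 mesoderm markers 1 were tested, with sums of at most 38.2 CPM. Among those, 1 neuroectoderm marker was called higher for both against control. The part that such cells have in the results below was not tested. In bulk libraries, fewer cells of a type and less RNA per cell cannot be told apart.

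Of the 42 carriers, 29 passed the filter on low counts (about 10 counts in at least 3 libraries), 8 had counts but did not pass and 5 had no count. Of 7 Slc1 genes 5 were tested, of 2 Slc3 genes 1, of 15 Slc7 genes 9, of 4 Slc36 genes 2, of 11 Slc38 genes 9 and of 3 Slc43 genes 3. The genes without a count were Slc7a10, Slc7a12, Slc7a13, Slc7a15 and Slc36a3. A count of 0 among 91.2 M allows a level of up to 0.0329 CPM over all libraries, for counting error only. The genes below the filter were Slc1a2, Slc1a7, Slc3a1, Slc7a9, Slc7a14, Slc36a2, Slc38a8 and Slc38a11. They held 5 to 31 counts in all, and no library exceeded 1.87 CPM for any of them. A gene that passed only through the group where it is high could differ more easily, so the counts below are over tested members, not over all carriers.

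Most carrier mRNA came from a few genes. The kit makes about 1 fragment per transcript at its 3′ end, so CPM was compared between genes without division by length. Averaged over the libraries, 6 of the 29 tested carriers lay above 100 CPM, 10 between 10 and 100 and 13 below 10. The highest was Slc38a2 at 832 CPM, followed by Slc3a2 at 422, the arginine and lysine carrier Slc7a3 at 235, Slc38a4 at 173, Slc38a1 at 140 and Slc38a10 at 102. The first 5 of these made up 73.7% to 85.1% of carrier counts in a library. The summed level of all 42 carriers was 1895, 1959 and 1801 CPM in control, 1970, 1937 and 2042 with proline, 2396, 2422 and 2567 with budesonide, and 2670, 2718 and 2553 with both. The 6 libraries given budesonide all lay above the 6 without it, and control 3 was the lowest. The sum is given as a description, and most of the gap lies in Slc38a2 and Slc3a2.

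**Figure D1:**
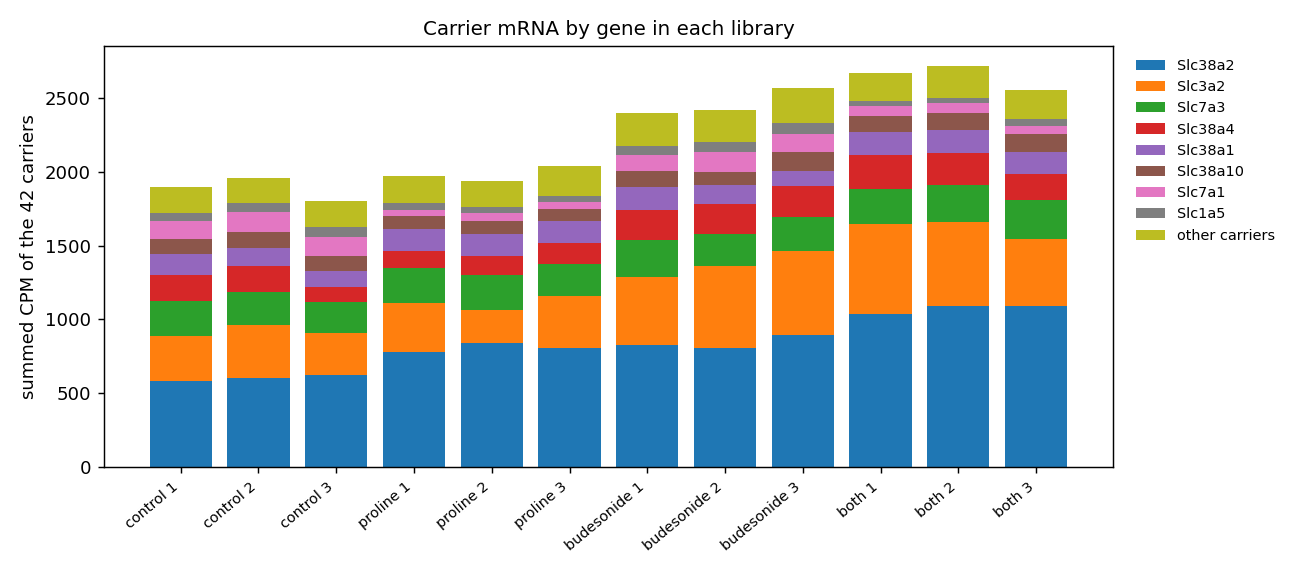
Stacked bars give the CPM of the 8 carriers with the highest mean level and the sum of the other carriers (vertical axis, summed CPM) in each of the 12 libraries (horizontal axis). The bars reach 1801 to 2042 CPM in control and proline libraries and 2396 to 2718 CPM in libraries with budesonide, and Slc38a2 is the tallest segment in each.

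Slc38a2, the system A carrier of alanine, proline and glutamine, rose with each compound and was highest with both. Its CPM was 585, 603 and 625 in control and 776, 841 and 809 with proline. It was 825, 810 and 893 with budesonide and 1039.9, 1089.9 and 1088 with both. The groups with 1 compound lay above control without overlap and overlapped each other, and all libraries of both lay above all others. Changes were tested with edgeR's quasi-likelihood test on all genes, and a gene is said to rise or fall where its Benjamini-Hochberg adjusted p was below 0.05. The log2 change with proline was 0.42 ± 0.09 (SE; edgeR adjusted p = 0.00449) and that with budesonide 0.48 ± 0.09 (edgeR adjusted p = 0.00218). Against proline alone, both gave 0.41 ± 0.09 (edgeR adjusted p = 0.00468), and against control 0.83 ± 0.09 (edgeR adjusted p = 4.89e-06). Against budesonide alone the difference was 0.35 ± 0.09 and was not called (edgeR adjusted p = 0.0572), but it was called by DESeq2 (0.00348) and limma-voom (0.0151). It was also called without control 3 (0.0355) and without control 3 and budesonide 3 together (0.0436). The interaction, the proline effect with budesonide minus that without, was −0.07 with a 95% interval of −0.34 to 0.20.

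Budesonide effects followed transcript length across all genes. The median log2 change with budesonide was −0.18 where a gene's longest transcript had at most 1 kb and 0.21 where it exceeded 8 kb. The longest transcript of Slc38a2 has 6.12 kb. With offsets for length and GC content, a setting chosen after the data were seen, the budesonide change of Slc38a2 was 0.37 (edgeR adjusted p = 0.0693, range over alternatives 5.59e-07 to 0.0693). Its change from proline to both was then 0.24 (edgeR adjusted p = 0.216, range 3.09e-05 to 0.216). Both calls ended there, while the calls of proline and of both against control held in all 21 alternatives.

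Of the other system A carriers, Slc38a4 rose in 1 comparison and Slc38a1 was called in none. Slc38a1, a carrier of glutamine and alanine, stood at 145, 124 and 104 CPM in control, 153, 149 and 149 with proline, 159, 130 and 103 with budesonide and 159, 156 and 147 with both. The proline libraries lay just above control without overlap and budesonide spanned both groups. Its proline change of 0.28 had a 95% interval of −0.04 to 0.59. Slc38a4, which is expressed from the paternal allele in mice, had 174, 178 and 105 CPM in control, 114, 130 and 144 with proline, 201, 201 and 211 with budesonide and 227, 220 and 174 with both. Control 3 was the lowest of all 12 libraries, and the libraries of both lay above those of proline without overlap. The rise from proline to both was 0.68 ± 0.16 (edgeR adjusted p = 0.00765), and the call ended without proline 1 (0.0564) or without the first library of both (0.0511; range over alternatives 0.000169 to 0.0564). Without control 3 and budesonide 3, which removed the lowest library, Slc38a4 was called lower with proline (−0.45, edgeR adjusted p = 0.0424), against −0.24 (0.478) with all libraries.

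**Figure D2:**
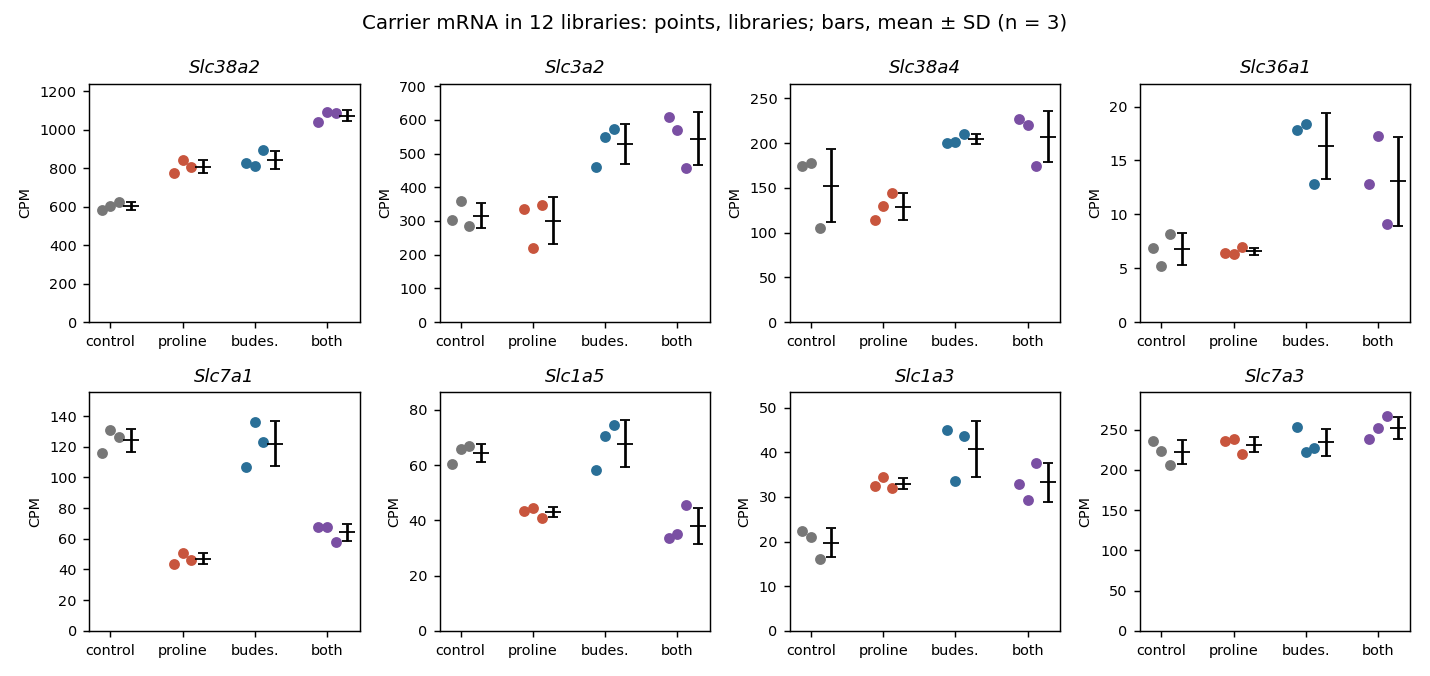
Each panel shows the CPM (vertical axis, from 0) of 1 carrier in the 3 libraries of each group (points) with the group mean ± SD (n = 3, bars). Slc38a2 climbs from 585 to 625 CPM in control to 1040 CPM or more with both compounds, Slc7a1 and Slc1a5 are low in the groups with proline, and Slc7a3 stays between 206 and 266 CPM in every library.

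The heavy chain Slc3a2, also known as CD98, rose with budesonide whether or not proline was present. Its CPM was 303, 358 and 286 in control, 336, 221 and 347 with proline, 460, 549 and 573 with budesonide and 607, 569 and 457 with both. The 6 libraries with budesonide lay above the 6 without it. The log2 change was 0.74 ± 0.15 with budesonide (edgeR adjusted p = 0.00362) and 0.85 ± 0.15 from proline to both (edgeR adjusted p = 0.000544). Both against control gave 0.79 ± 0.15 (edgeR adjusted p = 0.00176), and all 3 calls held in 21 of 21 alternatives. The longest transcript of Slc3a2 has 2.81 kb, a length at which the median gene had a budesonide change of −0.01. Proline alone gave −0.06, with a 95% interval of −0.38 to 0.25.

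The light chains that pair with Slc3a2 were far lower and none was called. Slc7a5, the leucine carrier known as LAT1, stood at 10.6, 20.2 and 8.79 CPM in control, 10.8, 5.48 and 18.2 with proline, 24.9, 16.1 and 29.2 with budesonide and 24.6, 25.9 and 20.4 with both. The libraries of both lay above those of control and of proline, and the spread within control and proline was wide. Its change from proline to both was 1.04 ± 0.38 (edgeR adjusted p = 0.0850). It was called without proline 3 (1.51, edgeR adjusted p = 0.0244), with limma-voom (0.0288), with no low-count filter (0.0395), without control 3 and budesonide 3 (0.0399) and with only the 6 libraries compared (0.0448). Slc7a6, which exchanges cationic for neutral amino acids, stood at 15.4, 13.9 and 13.1 CPM in control and 21.1, 33.5 and 23.6 with proline. It had 15.5, 19.7 and 22.1 CPM with budesonide and 14.3, 17.3 and 19.3 with both. Proline and control did not overlap, and the change of 0.88 ± 0.28 was just outside the call (edgeR adjusted p = 0.0551). It was called by DESeq2 (0.0330), at a minimum count of 30 (0.0428) and without budesonide 3 (0.0437).

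Slc7a7, the sister exchanger of Slc7a6, stood at 12.3, 7.71 and 9.56 CPM in control, 13.5, 6.81 and 5.56 with proline, 2.71, 3.87 and 4.08 with budesonide and 8, 10.8 and 9.20 with both. The budesonide libraries were the lowest 3 of the 12. The change with budesonide was −1.47 ± 0.46 (edgeR adjusted p = 0.0560), and DESeq2 called it (0.0265). Slc7a8, known as LAT2, had 0.655, 0.578 and 0 CPM in control and 2.62, 4.29 and 0.417 with proline. It had 0.902, 0.465 and 0 CPM with budesonide and 0.615, 1.61 and 0 with both. Its proline change of 2.54 had a 95% interval of −0.93 to 6.01 and was not called.

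The cystine exchanger Slc7a11, known as xCT, was near the detection limit. It had 9, 9 and 14 counts in control, 0, 11 and 10 with proline, 25, 2 and 47 with budesonide and 3, 0 and 0 with both. Budesonide libraries alone spanned 2 to 47 counts, and no comparison was called (edgeR adjusted p = 0.257 for both against control). Its promoter is printed because it holds a textbook pair of amino acid response elements, the sites through which Atf4 acts, facing each other. The window of 300 bases spans the start on the minus strand of GRCm38.p6, chr3:50443564-50443863, from RefSeq. Capitals mark TGATGNAA on either strand, starting 66 and 47 bases before the transcript start.
Slc7a11 promoter: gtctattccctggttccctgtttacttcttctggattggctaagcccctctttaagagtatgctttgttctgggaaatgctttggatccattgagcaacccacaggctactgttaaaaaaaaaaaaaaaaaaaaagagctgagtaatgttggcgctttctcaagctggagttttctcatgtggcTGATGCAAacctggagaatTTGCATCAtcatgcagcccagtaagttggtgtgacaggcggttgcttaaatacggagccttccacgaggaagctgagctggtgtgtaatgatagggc

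The heavy chain exceeded its light chains in every library. The light chains counted were Slc7a5, Slc7a6, Slc7a7, Slc7a8, Slc7a10 and Slc7a11. Slc3a2 had 7.49, 8.10 and 8.51 counts per light chain count in control and 6.99, 4.28 and 7.06 with proline. With budesonide there were 9.83, 13.6 and 9.29, and with both 12.7, 10.2 and 9.33. All libraries with budesonide lay above all without it. This ratio was formed after the values were seen and carries no test.

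Among carriers of cationic amino acids, Slc7a1 fell with proline while Slc7a3 was not called in any comparison. Slc7a1 (CAT1) stood at 116, 131 and 126 CPM in control, 43.8, 50.9 and 46.1 with proline, 107, 136 and 123 with budesonide and 67.4, 67.6 and 58.0 with both. The 6 libraries with proline lay below the 6 without it, and the proline libraries lay below those of both. The log2 change was −1.41 ± 0.15 with proline alone (edgeR adjusted p = 1.04e-06) and −0.92 ± 0.15 in the presence of budesonide (edgeR adjusted p = 0.00178). Both against control gave −0.95 ± 0.15 (edgeR adjusted p = 0.000268), and these calls held in all 21 alternatives. Both against proline was 0.46 ± 0.15 and not called (edgeR adjusted p = 0.0546), though DESeq2 called it (0.0312), as did a minimum count of 30 (0.0407) and the fit without control 3 and budesonide 3 (0.0393). The interaction of 0.48 ± 0.21 did not pass (edgeR adjusted p = 0.510). Budesonide alone gave −0.03, with a 95% interval of −0.33 to 0.27.

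Slc7a3 (CAT3) stood at 236, 223 and 206 CPM in control, 236, 238 and 220 with proline, 253, 221 and 228 with budesonide and 239, 252 and 266 with both. Its 95% interval for the proline change was −0.17 to 0.29, and for both against control −0.05 to 0.42. Within a library, Slc7a3 had 2.04, 1.71 and 1.63 counts per Slc7a1 count in control and 5.37, 4.67 and 4.77 with proline. The ratio was 2.37, 1.63 and 1.85 with budesonide and 3.55, 3.73 and 4.59 with both. The groups with proline lay above the groups without it, as a description. Slc7a2 (CAT2) was at 0 to 2.16 CPM.

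**Figure D3:**
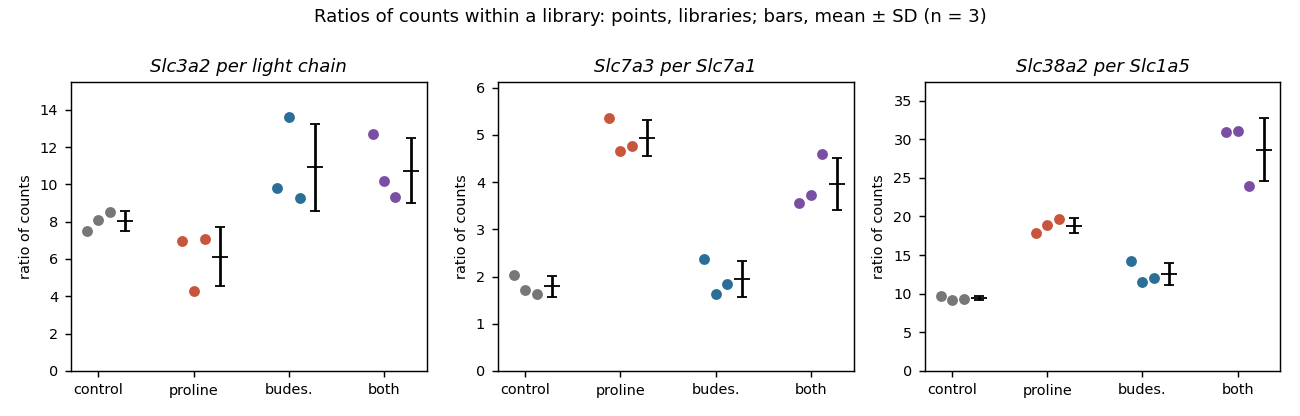
Panels give ratios of counts within a library (vertical axis, from 0) for the heavy chain Slc3a2 per light chain, Slc7a3 per Slc7a1 and Slc38a2 per Slc1a5, with points for libraries and bars for the mean ± SD (n = 3). The first ratio is 9.29 or higher in each library with budesonide, and the second is 3.55 or higher in each library with proline and 2.37 or lower in the others.

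Of the exchangers of small neutral amino acids, Slc1a5 fell where proline was given and Slc1a4 was not called by edgeR. Slc1a5 (ASCT2), which takes up glutamine in exchange, stood at 60.5, 65.7 and 66.8 CPM in control, 43.5, 44.4 and 41.0 with proline, 58.2, 70.7 and 74.4 with budesonide and 33.5, 35.1 and 45.5 with both. The 6 libraries with proline lay below the 6 without it. The log2 change was −0.58 ± 0.18 with proline (edgeR adjusted p = 0.0466), −0.83 ± 0.18 from budesonide to both (edgeR adjusted p = 0.0201) and −0.76 ± 0.18 for both against control (edgeR adjusted p = 0.0104). The first call was fragile and ended in 12 of 21 alternatives. Those included leaving out any 1 library of control or proline (edgeR adjusted p = 0.0879 to 0.157), budesonide 2 (0.0623) or the first or second library of both (0.0611 each), and the fits with no low-count filter (0.0842) and without control 3 and budesonide 3 (0.0772; range over alternatives 0.0216 to 0.157). The second ended without budesonide 2 (0.0610), budesonide 3 (0.0819), the first library of both (0.125) or its second (0.0962), and with only the 6 libraries (0.0589; range 0.000984 to 0.125). The third ended without the first library of both (0.0776) or its second (0.0656; range 0.00141 to 0.0776).

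Slc1a4 (ASCT1), which exchanges alanine, serine, cysteine and threonine, stood at 24.5, 21.6 and 25.8 CPM in control, 26.0, 17.2 and 16.5 with proline, 28.3, 27.6 and 28.6 with budesonide and 15.1, 18.4 and 13.1 with both. The libraries of both lay below control and budesonide without overlap, and proline 1 lay above every control. With proline alone the change was −0.26 ± 0.26 (edgeR adjusted p = 0.672). The change from budesonide to both was −0.86 ± 0.26 (edgeR adjusted p = 0.111), and only DESeq2 of the alternatives called it (0.0478). The start of Slc1a4 on the minus strand, chr11:20332664-20332963 of GRCm38.p6 from RefSeq, is shown because 1 response element, in capitals, begins 4 bases before it.
Slc1a4 promoter: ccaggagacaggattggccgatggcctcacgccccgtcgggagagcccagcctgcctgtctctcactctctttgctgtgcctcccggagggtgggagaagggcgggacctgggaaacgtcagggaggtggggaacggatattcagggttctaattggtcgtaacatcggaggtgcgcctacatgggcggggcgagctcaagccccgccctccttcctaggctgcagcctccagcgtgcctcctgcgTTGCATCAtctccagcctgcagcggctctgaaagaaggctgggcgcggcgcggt

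Slc38a2 and Slc1a5 both carry glutamine, and the ratio of their counts was higher in every treated group than in control. There were 9.66, 9.17 and 9.36 Slc38a2 counts per Slc1a5 count in control and 17.8, 18.9 and 19.7 with proline. The ratio was 14.2, 11.5 and 12 with budesonide and 31, 31.1 and 23.9 with both. The 4 groups did not overlap. The pair was picked after its values were seen, so no test is given.

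Slc1a3, a carrier of glutamate and aspartate known as GLAST or EAAT1, was higher in all treated groups than in control. It stood at 22.3, 21 and 16 CPM in control, 32.5, 34.5 and 32 with proline, 45, 33.6 and 43.7 with budesonide and 32.8, 29.2 and 37.7 with both. The treated groups overlapped one another and control 3 was the lowest library. The log2 change was 1.05 ± 0.23 with budesonide (edgeR adjusted p = 0.00561), 0.74 ± 0.22 with proline (edgeR adjusted p = 0.0444) and 0.75 ± 0.23 with both (edgeR adjusted p = 0.0436). The budesonide call ended only without control 3 and budesonide 3 together (edgeR adjusted p = 0.0524), of 21 alternatives. The proline call ended in 14 of 21, among them leaving out any 1 library of control or proline (0.0699 to 0.166) or of both (0.0503 to 0.0651), limma-voom (0.0617), no low-count filter (0.0765) and only the 6 libraries (0.0606; range 0.0192 to 0.166). The call of both against control ended in 15 of 21, among them leaving out any 1 library of control, proline or both (0.0527 to 0.178), limma-voom (0.0752), no low-count filter (0.0755) and length and GC offsets (0.0691; range 0.0202 to 0.178). Its interaction, −1.03 ± 0.31, had the lowest unadjusted p of the carriers (0.00320) and did not pass (edgeR adjusted p = 0.230). The related Slc1a1 and Slc1a6 were at 0 to 4.96 CPM and were not called.

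Slc36a1 (PAT1), which moves glycine, alanine and proline with protons out of the lysosome, rose with budesonide. It stood at 6.87, 5.2 and 8.17 CPM in control, 6.41, 6.36 and 6.95 with proline, 17.8, 18.4 and 12.8 with budesonide and 12.8, 17.3 and 9.07 with both. The 6 libraries with budesonide lay above the 6 without it, and the third library of both came closest. The log2 change with budesonide was 1.27 ± 0.37 (edgeR adjusted p = 0.0394). From proline to both it was 0.98 ± 0.37 (edgeR adjusted p = 0.0933), with a 95% interval of 0.23 to 1.74. The call ended in 14 of 21 alternatives. These were leaving out control 1 (edgeR adjusted p = 0.108), control 2 (0.158), control 3 (0.0569), proline 1 (0.05), proline 3 (0.0521), budesonide 1 (0.104), budesonide 2 (0.115) or the first (0.0618) or second library of both (0.0539), limma-voom (0.0811), no low-count filter (0.078), only the 6 libraries (0.0766), length and GC offsets (0.0746) and 1 other fit given with the alternatives (range 0.0157 to 0.158). With control means under 10 CPM, Slc36a1 was the lowest of the called carriers.

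The Slc36a1 promoter, plus strand, chr11:55204090-55204389 of GRCm38.p6 from RefSeq, is shown because it holds a pair of E-boxes, the letters CACGTG that lysosomal genes use to bind Tfeb and its relatives. Capitals mark them, starting 31 and 3 bases before the transcript start.
Slc36a1 promoter: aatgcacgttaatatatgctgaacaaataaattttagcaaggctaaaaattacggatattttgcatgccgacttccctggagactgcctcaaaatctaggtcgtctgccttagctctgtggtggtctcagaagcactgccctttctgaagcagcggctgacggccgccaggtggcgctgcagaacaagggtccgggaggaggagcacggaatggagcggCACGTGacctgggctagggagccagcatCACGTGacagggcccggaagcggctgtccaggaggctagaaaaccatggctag

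Other carriers of the lysosome were not called. Slc38a9, the arginine sensor of the lysosomal membrane, stood at 19.3, 18.5 and 23.1 CPM in control, 23.0, 13.3 and 28.6 with proline, 35, 25 and 21.7 with budesonide and 26.1, 34.8 and 33.5 with both. The libraries of both lay above control, with a change of 0.63 ± 0.28 (edgeR adjusted p = 0.202). Slc38a7, which exports glutamine and asparagine from the lysosome, ranged over 14.3 to 30.8 CPM with overlapping groups. Slc36a4, a carrier of proline and tryptophan, stood at 1.64, 0.193 and 0 CPM in control, 1.5, 0 and 2.22 with proline, 2.14, 0.465 and 3.69 with budesonide and 1.38, 2.05 and 1.07 with both. Its change with budesonide had a 95% interval of −1.35 to 4.85.

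The remaining carriers gave no call. Slc38a10, a less studied Slc38 member, had group means of 106, 84.1, 107 and 113 CPM in control, proline, budesonide and both. The proline libraries (84.3, 88.7 and 79.2) lay below control (105, 109 and 105) and below both (107, 111 and 121), and the change from proline to both was 0.43 ± 0.15 (edgeR adjusted p = 0.0722). It was called by DESeq2 (0.0498), without control 3 and budesonide 3 (0.0325) and with only the 6 libraries (0.0315). The branched-chain carrier Slc43a2 stood at 11.9, 15.2 and 12.5 CPM in control, 10.1, 15.8 and 15.4 with proline, 12.5, 13.8 and 16.1 with budesonide and 9.69, 14.6 and 9.87 with both, with overlap throughout. Its relative Slc43a1 had 2.95, 6.55 and 3.39 CPM in control, 7.92, 2.96 and 5.56 with proline, 0.451, 4.96 and 3.42 with budesonide and 4.46, 5.56 and 7.60 with both. Slc38a6 lay between 5.26 and 11.4 CPM. The system N carriers Slc38a3 and Slc38a5, the orphan Slc7a4 and the nucleobase carrier Slc43a3 lay between 0 and 5.66 CPM. For Slc43a2, which an opposite-strand gene (Gm45606, 354 counts) overlaps, reads of the partner could be mixed in, since the strand setting is not given in the sources used here.

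Counted over the 29 tested carriers, 7 were called in at least 1 comparison and 22 in none. With proline against control 2 rose and 2 fell, 13.8%, where 7.88% of all 13852 tested genes were called (3.17% higher, 4.71% lower). The carriers' median log2 change was −0.04 and that of all genes −0.01. With budesonide against control 4 rose and none fell, 13.8% against 6.51% of all genes (2.51% higher, 4% lower), with medians of 0.26 and 0.01. Though none was called lower, 7 carriers had an unadjusted p below 0.05 in either direction. DESeq2 called 4 higher and 1 lower, where it called 9.15% of all genes. From proline to both, 3 rose and none fell, 10.3% against 10.1% (5.83% higher, 4.27% lower), a share near the background, with medians of 0.03 and 0.02. There 9 carriers had an unadjusted edgeR p below 0.05, and DESeq2 called 5 higher and none lower. From budesonide to both 2 fell and none rose, 6.90% against 1.47% (0.874% higher, 0.592% lower), with medians of −0.15 and 0.01. There 7 carriers had an unadjusted edgeR p below 0.05, and DESeq2 called 3 lower and 1 higher. The unadjusted counts, and DESeq2's counts from proline or budesonide to both, have no all-gene share beside them and are descriptions only. For both against control 3 rose and 2 fell, 17.2% against 7.17% (3.34% higher, 3.83% lower), with medians of 0.12 and 0.01. Groups of 3 libraries without overlap were common among all genes, so a lack of overlap is a description only. With proline against control it held for 8 of 29 carriers and 3692 of 13852 genes. The numbers were 8 and 3278 with budesonide, 12 and 4416 from proline to both, and 6 and 2684 from budesonide to both. For both against control they were 13 and 3935. The comparisons share libraries and are not independent of each other.

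**Figure D4:**
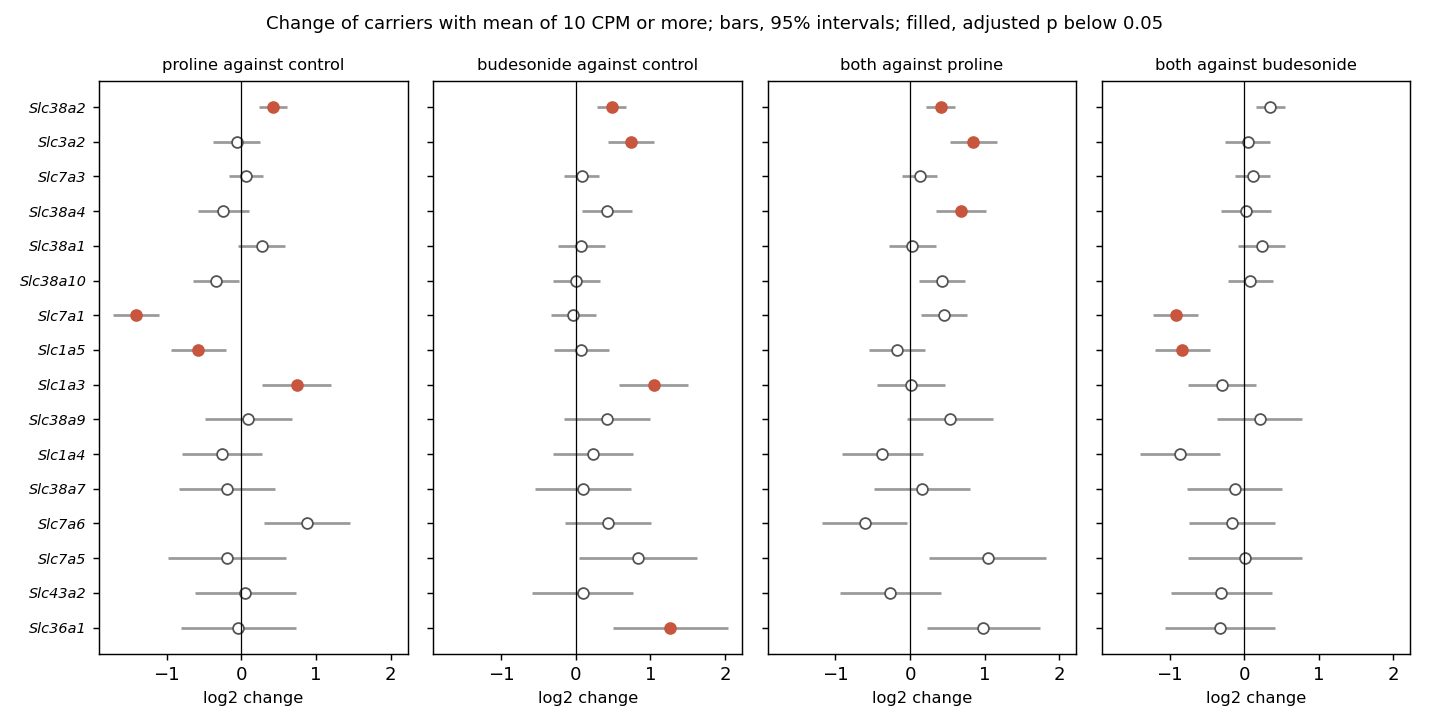
For the 16 carriers with a mean of 10 CPM or more, points give the log2 change and bars its 95% interval in 4 comparisons, with filled points where the edgeR adjusted p was below 0.05. The filled points with proline lie on both sides of 0 (Slc7a1 at −1.41, Slc38a2 at 0.42), and those with budesonide lie above 0.

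No carrier passed the interaction test, where 0.469% of all genes did (0.411% higher, 0.0578% lower). By edgeR 4 carriers had an unadjusted p below 0.05, by DESeq2 5 and by limma-voom 4, and neither of the other tools called any after adjustment. The 95% intervals of the interaction for those 4 by edgeR were −1.68 to −0.38 for Slc1a3, −1.86 to −0.23 for Slc7a6, 0.27 to 2.88 for Slc7a7 and 0.05 to 0.91 for Slc7a1.

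Promoter windows of 300 bases were matched by symbol for 31 of the 42 carriers. TGATGNAA, on either strand, lay in those of 3 carriers (Slc1a4, Slc7a7 and Slc7a11) and in 3.97% of all 32851 windows, or 4.51% of genes. CACGTG lay in 7 of the 31, in 7.15% of windows and 8.09% of genes. The 7 were Slc1a6, Slc1a7, Slc7a14, Slc36a1, Slc38a5, Slc38a7 and Slc43a1. Of these only Slc36a1 was called in a comparison, and Slc1a7 and Slc7a14 were below the filter. The full glucocorticoid receptor palindrome, also sought on both strands, lay in none of the 31 and in 0.00913% of windows. No window was matched for Slc1a5. A match is a description of the letters only, and a site outside the window is not counted.

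Other genes of amino acid handling were counted from lists drawn up with earlier results known. Of 22 tested carriers from other families, 1 rose and 2 fell with proline (13.6% against 7.88%), 1 rose with budesonide (4.55% against 6.51%), and 6 rose and 1 fell from proline to both (31.8% against 10.1% of all genes). The last included the taurine carrier Slc6a6, at 207 ± 20.5 and 414 ± 61.9 CPM (SD, n = 3; log2 1 ± 0.15), and the creatine carrier Slc6a8 at 1.03 ± 0.19. Slc6a8 was 1 of the carriers that fell with proline (−0.85 ± 0.19). It had 84.6 ± 6.60 CPM in control, 47.1 ± 7.49 with proline and 95.9 ± 18.4 with both. Both against control was not called for Slc6a8 (0.18 ± 0.19, edgeR adjusted p = 0.681). The lysosomal cystine exporter Ctns, at 7.77 ± 4.29 and 22.0 ± 1.02 CPM, changed by 1.5 ± 0.40 and the lysosomal arginine and lysine carrier Slc66a1 by 1.29 ± 0.39. For both against control, Slc66a1 was called (edgeR adjusted p = 0.0299) and Ctns was not (1.28 ± 0.41, edgeR adjusted p = 0.0581). Mfsd12 and Sfxn3 also rose from proline to both, at low levels with a wide spread. Mfsd12 had 5.07 ± 3.41 and 16 ± 7.32 CPM, and Sfxn3 had 0.355 ± 0.257 and 5.2 ± 5.15. The mitochondrial serine carrier Sfxn1 fell by 0.61 on the log2 scale from proline to both, and rose by 0.36 ± 0.11 with proline alone. From budesonide to both none of these carriers was called by edgeR or DESeq2, and 3 had an unadjusted p below 0.05 by either tool.

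Of 38 tested genes of amino acid sensing at the lysosome, 1 rose and 1 fell with proline (5.26% against 7.88% of all genes), 1 and 1 with budesonide (5.26% against 6.51%), and 3 rose and 1 fell from proline to both (10.5% against 10.1%). None of these shares lay clearly above the background. The Rag GTPase Rragd rose with proline by 1.02 ± 0.20. Fnip1, a partner of folliculin, had 60.7 ± 6.10 CPM in control and 40.7 ± 3.55 with proline, where it fell. It rose with budesonide, to 112 ± 17.2, and stood at 77.7 ± 11.2 CPM with both. Tfeb, the transcription factor of lysosomal genes, had 9.66 ± 4.15 CPM with proline and 31.6 ± 7.71 with both (log2 1.69 ± 0.34). It had 17.3 ± 5.10 CPM in control and 23.8 ± 7.37 with budesonide. Against control, Tfeb was not called with proline, budesonide or both (edgeR adjusted p = 0.167, 0.492 and 0.125). From proline to both, Rragc changed by 0.97 ± 0.18. Rraga fell by 0.80 on the log2 scale with budesonide.

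Of 20 tested genes of the integrated stress response, which controls Atf4, none rose and 6 fell with proline (30% against 7.88%). Those that fell were Asns, Atf4, Atf5, Ddit3, Nupr1 and Trib3. The list mixes regulators of the response with genes downstream of Atf4, such as Asns and Chac1. Its shares are not shares of regulators alone. With budesonide 1 fell (5% against 6.51%), and from proline to both 2 rose and 3 fell (25% against 10.1%). From budesonide to both 1 fell (5% against 1.47%), and for both against control 1 rose and 5 fell (30% against 7.17%). With proline, 8 had an unadjusted edgeR p below 0.05, and DESeq2 called 7 and limma-voom 6 in either direction. Of all genes, DESeq2 called 10.2% and limma-voom 8.05% there. No all-gene share is given for the unadjusted count. Atf4 had 468 ± 51.6 CPM in control and 325 ± 12.6 with proline, against 372 ± 45.8 with budesonide and 303 ± 20.8 with both. Its change was −0.53 ± 0.12 with proline and −0.63 ± 0.12 for both against control, and it was not called from budesonide to both (−0.30 ± 0.12, edgeR adjusted p = 0.250). The gene that fell from budesonide to both was Asns (−0.82 ± 0.12, edgeR adjusted p = 0.00118). Asns changed by −1.17 ± 0.13 with proline (edgeR adjusted p = 1.08e-06) and by −0.96 ± 0.13 for both against control (edgeR adjusted p = 3.72e-05). Chac1, a glutathione-degrading Atf4 target, fell by 1.91 on the log2 scale from proline to both, and Ddit3 rose by 1.93 ± 0.55. All changes of these lists were tested with edgeR over all genes, at adjusted p-values below 0.05.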

How the data were processed

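Polyadenylated RNA of 12 libraries was sequenced from the 3′ end, per the labels' protocols. The authors deposited whole-number counts per gene symbol. Per the submitters' processing notes, the tools included STAR 2.7.5c, featureCounts 2.0 and cutadapt 2.5, and the build was GRCm39. Whether counting used strand, and what became of multi-mapped reads, is not given in the sources used here. A second deposited table was not used here.

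Tests on these counts used edgeR 4.0.16 under R 4.3.3: filterByExpr (minimum count 10, minimum total 15; 13852 genes kept), TMM scaling, and the quasi-likelihood F test (two-sided) over all 12 libraries with 1 coefficient per group (8 residual degrees of freedom). Benjamini-Hochberg adjustment covered all tested genes. Standard errors were derived from each log2 change and its F. The fit was tested on simulated data. Alternatives used DESeq2 1.42.0 and limma-voom (limma 3.58.1), other filters, a replicate block and omitted libraries. Length and GC content came from GENCODE M21 (GRCm38), which matched 97.7% of tested genes and all 29 carriers. Promoter sequences came from RefSeq (GRCm38.p6). Members and lists were chosen with earlier results of these data known. Values in every library are given for carriers called in any comparison and for 16 fixed carriers. Replicates were distinct libraries: they differed by a chi-square per degree of freedom of 5.55 or more. Same-numbered libraries did not deviate together, so the numbers were not used as pairs.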

Additional observations from a re-analysis of the deposited data

How the results depend on the processing

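Of the 18 changes called for single carriers, 8 were called in every one of the 21 alternatives, 10 were lost in at least 1, and none changed sign. The number of carriers called with proline against control was 4, and 2 with no low-count filter, 2 with the replicate block and 2 to 5 when 1 library was left out (2 without any library of control or proline, or the first or second of both). With budesonide against control it was 4, and 2 with length and GC offsets (3 to 4 with 1 library left out). From proline to both it was 3, and 5 with DESeq2, 6 without control 3 and budesonide 3 together and 5 with only the 6 libraries compared (2 to 4 with 1 library left out). From budesonide to both it was 2, and 4 with DESeq2 and 1 with only the 6 libraries (1 to 3 with 1 library left out, and 1 without budesonide 2 or 3 or the first or second library of both). All genes called there numbered 203, and 419 with DESeq2 and 120 with only the 6 libraries. For both against control it was 5 (3 to 5, and 3 without the first or second library of both), and the interaction gave 0 in every alternative run. The share of all genes called moved as well. With proline against control that share was 7.88% in the main fit, 4.55% with no low-count filter and 6.69% with the replicate block. It ran from 4.6% to 8.54% with 1 library left out. With budesonide against control it was 6.51%, 4.67% with length and GC offsets and 4.23% to 6.19% with 1 library left out. The counts of carriers alone thus do not set them apart from other genes. Where an arm kept 2 libraries the spread was pooled over all groups. The correlation of same-numbered libraries' deviations ran from −0.0767 to 0.0529 over 18 pairs, so no shared deviation was seen. Whether those libraries shared a culture or a day is not given in the labels. The block also ended the calls of Slc36a1 with budesonide (edgeR adjusted p = 0.0684), Slc1a3 with proline (0.0651) and with both against control (0.0648), and Slc1a5 with proline (0.0635). Another scaling moved the median of all genes by less than 0.1 on the log2 scale. The 13 tested carriers below 10 CPM gave no call, and whether deeper libraries would give one was not tested. The cause of these shifts was not tested.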
